A study of Mus musculus with 46 samples.

Results

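The Ms4a family was followed through 6 members, Ms4a4b, Ms4a4c, Ms4a6b, Ms4a6c, Ms4a6d and Ms4a7, taken by symbol from the gene tables. They are 6 of the 17 genes whose symbols start with Ms4a in a count table of 20999 genes. All 6 lie on mouse chromosome 19, between 11321039 and 11604804 of the mm10 build, a span of 283.8 kb that was also searched for chromatin peaks. Microglia, the resident macrophages of the brain, had been sorted from male C57BL/6 mice, and RNA was sequenced from 5 groups of 2 libraries that the labels call independent biological replicates. The adult group came from untreated wild-type mice aged 90 days, and its cells are labelled Ki67-negative. The other RNA groups came from Ki67-rfp mice, which carry a red fluorescent reporter for Ki67, a protein of cycling cells. Mice aged 8 days (PND8) gave a Ki67-negative and a Ki67-positive group. The repopulation groups, again sorted as Ki67-negative and Ki67-positive, came from mice aged 75 days that ate PLX5622 diet from day 55 for 17 days and then recovered for 3 days. PLX5622 inhibits the CSF1 receptor on which microglia depend for survival. Histone H3 lysine 27 acetylation (H3K27ac), a mark of active promoters and enhancers, was mapped in 12 libraries, 2 in each of 6 groups: adult (60 and 65 days, wild type), PND8 Ki67-negative and Ki67-positive, cuprizone Ki67-negative and Ki67-positive, and repopulation Ki67-positive. Cuprizone is a dietary toxin that strips myelin, and it was given for 4 weeks to mice aged 90 days. The repopulation mice of the H3K27ac set were aged 90 days and started the diet on day 70. For these libraries the cells were fixed and sorted after staining with an antibody to Ki67. The labels give a wild-type genotype for all chromatin libraries. Open chromatin (ATAC-seq) was measured in 1 library each of adult (80 days), PND8 Ki67-positive and repopulation Ki67-positive cells. The repopulation mice of that set were aged 75 days and started the diet on day 55, and the titles of its PND8 and repopulation libraries name the reporter although their genotype label does not. The polymerase II subunit Rpb2 was mapped in 2 libraries of adult cells (60 and 65 days) and in 1 of PND8 Ki67-positive cells, and H3K4me3, a mark of active promoters, in 2 libraries of adult cells (75 days).

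Ms4a genes encode small proteins that cross the membrane several times and lie in a cluster of tandem duplicates. The best known are Ms4a1, which encodes the B cell protein CD20, and Ms4a2, which encodes a chain of the mast cell IgE receptor. Human genes of the cluster lie at a locus linked to the risk of Alzheimer's disease and to the level of soluble TREM2, a receptor of microglia. Ms4a4b is best known from T cells, Ms4a4c from monocytes and interferon-treated cells, and Ms4a7 from macrophages at the borders of the brain, where it is used to tell them from microglia. Ms4a6b, Ms4a6c and Ms4a6d are expressed in myeloid cells.

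The 250 bases upstream of the annotated start were read for 5 of the 6 members from RefSeq on GRCm38.p6, the assembly also called mm10. Ms4a6d had no entry. These stretches are shown because the starts differ in the results that follow. The Ms4a6b and Ms4a6c starts carried H3K27ac in every library, and the Ms4a7 start was marked in few libraries. The Ms4a4c start used for the counts was open only in repopulation, while a RefSeq start further upstream was open at PND8 as well. Ms4a4b, the neighbour of Ms4a4c, had no peak. Each stretch is written 5′ to 3′ on the strand of the gene. In the first 4, capitals mark the longest run shared within the Ms4a4b and Ms4a4c pair or within the Ms4a6b and Ms4a6c pair, and in Ms4a7 they mark a match to GAAANNGAA on the opposite strand.
Ms4a4b (chr19:11443308-11443557, plus strand): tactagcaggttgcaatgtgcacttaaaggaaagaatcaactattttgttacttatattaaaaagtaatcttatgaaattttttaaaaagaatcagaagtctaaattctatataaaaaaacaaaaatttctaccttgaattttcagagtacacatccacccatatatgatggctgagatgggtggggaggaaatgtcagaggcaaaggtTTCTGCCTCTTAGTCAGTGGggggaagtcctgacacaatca
Ms4a4c (chr19:11407411-11407660, plus strand): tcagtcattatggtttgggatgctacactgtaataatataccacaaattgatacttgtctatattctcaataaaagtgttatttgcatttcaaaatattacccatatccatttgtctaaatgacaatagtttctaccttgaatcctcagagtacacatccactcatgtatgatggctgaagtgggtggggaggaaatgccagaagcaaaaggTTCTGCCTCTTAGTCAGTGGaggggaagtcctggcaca
Ms4a6b (chr19:11518309-11518558, plus strand): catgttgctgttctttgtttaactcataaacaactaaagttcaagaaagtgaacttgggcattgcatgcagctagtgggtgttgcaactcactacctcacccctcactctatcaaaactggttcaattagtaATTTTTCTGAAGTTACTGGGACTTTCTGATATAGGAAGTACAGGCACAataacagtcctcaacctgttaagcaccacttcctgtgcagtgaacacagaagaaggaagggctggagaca
Ms4a6c (chr19:11469118-11469367, plus strand): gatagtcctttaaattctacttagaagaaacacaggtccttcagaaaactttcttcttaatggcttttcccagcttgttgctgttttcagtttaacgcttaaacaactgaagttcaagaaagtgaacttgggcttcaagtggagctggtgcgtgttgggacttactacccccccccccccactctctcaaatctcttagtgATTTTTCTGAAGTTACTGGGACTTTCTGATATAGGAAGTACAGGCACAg
Ms4a7 (chr19:11336147-11336396, minus strand): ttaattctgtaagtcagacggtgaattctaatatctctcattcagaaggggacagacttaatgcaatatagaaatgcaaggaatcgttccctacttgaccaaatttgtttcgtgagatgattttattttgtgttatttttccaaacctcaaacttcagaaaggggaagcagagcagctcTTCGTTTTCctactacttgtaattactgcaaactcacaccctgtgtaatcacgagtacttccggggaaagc

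The Ms4a4b and Ms4a4c stretches were identical at 69.6% of aligned columns (181 of 260), whereas the other 9 pairs lay between 44.7% and 49.4%. Their longest shared run was 20 bases, which began 41 bases before the Ms4a4b start and 38 bases before the Ms4a4c start. Ms4a6b and Ms4a6c reached only 45.8% over the whole stretch, but held an identical run of 48 bases. That run began 118 bases before the Ms4a6b start and 49 bases before the Ms4a6c start, so that it sat at different distances from the annotated starts. Motifs were searched on both strands of the 250 bases and of all 27025 promoters in the RefSeq table. The PU.1 motif GAGGAAGT was present in 2.44% of all promoters, the interferon response element (GAAANNGAA with a further A at its end) in 3.04%, the AP-1 motif TGANTCA in 6.87%, the GAS motif TTCNNNGAA in 7.18% and the C/EBP motif TTGCNNAA in 9.55%. None of these motifs occurred in any of the 5 member stretches. The Ms4a4c stretch lies before the start used for the counts. The sequence before an upstream RefSeq start of Ms4a4c, at 11404717, was not read as a member stretch. That upstream start was the one with H3K27ac peaks, so these matches do not cover it. The shortened element GAAANNGAA, which every interferon response element contains and which was searched after the sequences had been seen, was present in 7.16% of all promoters and in 3 of the 5. It read GAAAGTGAA 206 bases before the Ms4a6b start and 133 bases before the Ms4a6c start, and TTCGTTTTC, its complement, 71 bases before the Ms4a7 start. These matches describe letters, not bound sites.

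The RNA libraries held 6865903 to 10287876 counts over genes, with 13557 to 14728 genes detected. Marker lists were read in TPM, an abundance per transcript length scaled to the whole library. The 10 microglia markers summed to 4133 to 5591 TPM with none at 0, so markers of the labelled cell type were present in every library. The 10 markers of T, NK or B lymphocytes summed to 0.37 to 2.00 TPM, with Cd3d, Cd3g and Cd8a at 0 throughout. The 10 markers of monocytes or neutrophils summed to 401 and 117 TPM in the 2 adult libraries and to 13.7 to 29.5 TPM in the other 8. The 10 markers of border macrophages summed to 285 to 310 TPM in adult, 480 to 543 TPM at PND8 and 162 to 216 TPM in repopulation. Most of the adult and repopulation sums was Stab1, at 255 and 271 TPM in adult and 132 to 174 TPM in repopulation. At PND8 most was Stab1 (222 to 276 TPM) together with Mrc1 (147 to 238 TPM). The 4 astrocyte markers summed to 84.9 to 87.6 TPM in adult, 16.2 to 153 at PND8 and 140 to 190 in repopulation. Nearly all of that sum was the glutamate transporter gene Slc1a3, while Aqp4 and Gfap stayed at 0 to 2.23 TPM. Aldh1l1 was at 0 and 0.287 TPM in adult, 0.218 to 0.904 at PND8 and 2.25 to 4.62 in repopulation. The 4 endothelial markers summed to 10.9 to 37.4 TPM and the 3 erythroid markers to 0.311 to 70.6 TPM, highest at PND8. The part of these cells in the member levels was not tested. Mki67, which encodes Ki67, was higher in the Ki67-positive sort by 1.95 on the log2 scale at PND8 (edgeR adjusted p = 9.17e-06), and the repopulation value was 1.34 (adjusted p = 0.000198). In bulk RNA, fewer cells of a type and less RNA per cell cannot be told apart. The adult group also differed from the other 4 in genotype and in a header code that no other group shared, and these differences and the stage cannot be told apart.

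Ms4a6d and Ms4a6b were the most abundant members on the TPM scale, Ms4a6c came next, and Ms4a4c, Ms4a7 and Ms4a4b were low outside particular groups. The 17 Ms4a genes together summed to 156 to 202 TPM per library. Ms4a6d gave 39.9% to 46.7% of that sum in adult and PND8 libraries and 32.7% to 34.6% in repopulation. Ms4a6b gave 32.9% to 40.1% over all 10 libraries. Ms4a6c gave 13% to 16.3% in adult and PND8 libraries and 22.7% to 24.9% in repopulation, and Ms4a4c moved from 0.34% to 2.17% in the former to 6.49% to 9.09% in the latter. Ms4a7 stayed between 0% and 5.11%. Reads that near-identical duplicates share could be split between genes, and how such reads were counted is not given in the sources used here.

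**Figure D1:**
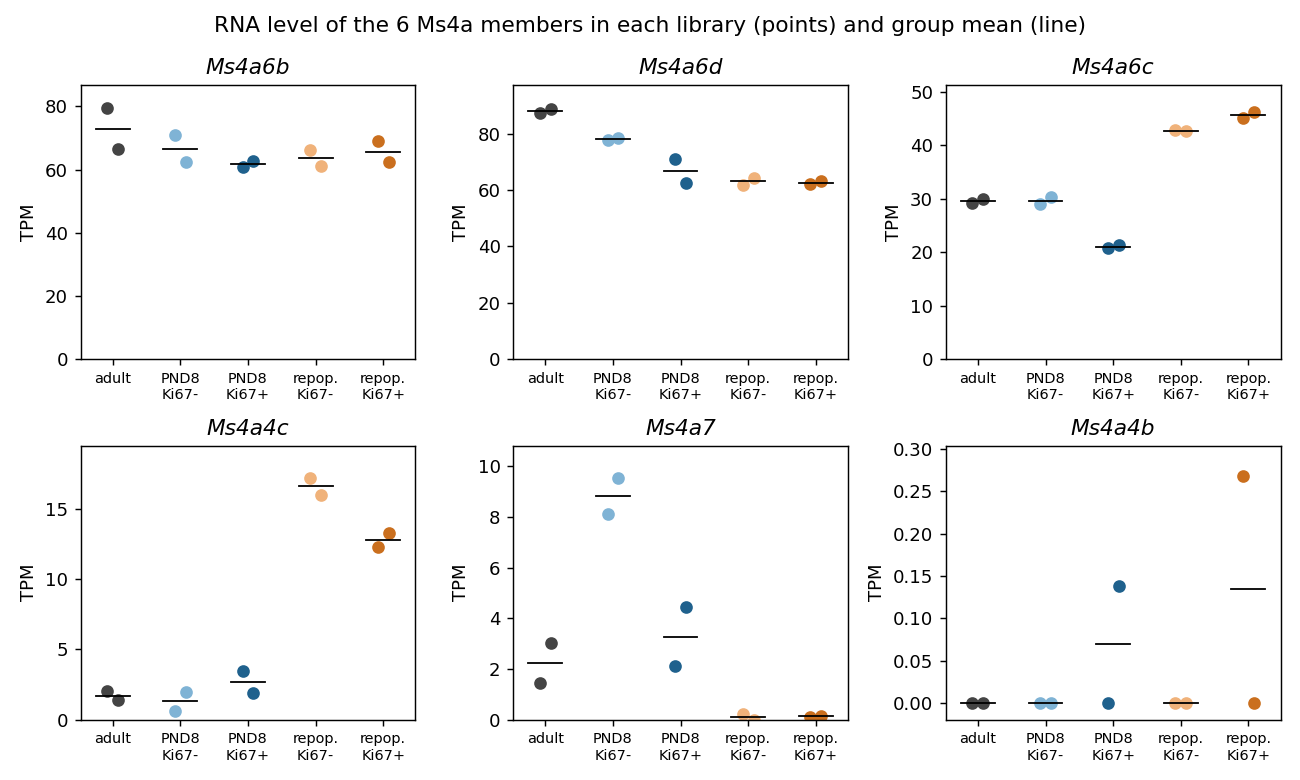
TPM (y axis, linear, own range in each panel) of the 6 members in the 5 RNA groups (x axis); each point is 1 library and each line a group mean. Ms4a4c and Ms4a6c were highest in the repopulation libraries, Ms4a6d was highest in adult, Ms4a7 was highest in PND8 Ki67-negative cells, and Ms4a4b had 3 counts in all.

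Ms4a4c (19:11407661-11427246, plus strand) was at 2.04 and 1.39 TPM in the adult libraries, 0.639 and 2.01 in PND8 Ki67-negative, 3.48 and 1.92 in PND8 Ki67-positive, 17.2 and 16.0 in repopulation Ki67-negative and 12.3 and 13.3 in repopulation Ki67-positive. These rest on 6 to 36 counts per library in adult and PND8 and on 112 to 193 counts in repopulation. All 4 repopulation libraries lay above all 6 others. In order of group means, repopulation Ki67-negative (16.6 ± 0.858 TPM, SD, n = 2) stood above repopulation Ki67-positive (12.8 ± 0.712), and PND8 Ki67-positive, adult and PND8 Ki67-negative followed with overlapping ranges. Genes were tested with edgeR's quasi-likelihood test over 12230 genes, and called at a Benjamini-Hochberg adjusted p under 0.05. Against adult, Ms4a4c was higher by 2.96 on the log2 scale (SE 0.382, adjusted p = 3.57e-05, 7.78-fold) in repopulation Ki67-positive cells. The difference was 3.33 (SE 0.377, adjusted p = 1.48e-05, 10.1-fold) in repopulation Ki67-negative cells, against the same adult libraries. Against PND8 cells of the same Ki67 class it was 2.30 (SE 0.354, adjusted p = 0.000277) in the positive sort and 3.62 (SE 0.381, adjusted p = 8.9e-06) in the negative sort. The last value was 4.73 without PND8 Ki67-negative replicate 2, which held 25 of the 31 counts of its group. Within the header code that a PND8 and a repopulation library of each class share, the differences were 2.61 in the positive and 3.01 in the negative sort.

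The interferon response list, genes that cells switch on after type I interferon, moved in the same comparisons. All 20 of its genes were called higher in repopulation Ki67-positive than in adult cells (median log2 fold change 2.82, against -0.01 over all genes), where 23.9% of all genes were called higher. All 20 were also called higher in repopulation Ki67-negative than in adult cells (median 3.01), against 21.5% of all genes. The list also moved in part at PND8, where Ms4a4c was not called against adult (edgeR adjusted p = 0.235 in the positive and 0.651 in the negative sort). There 8 of the 20 were called higher than adult in each sort, against 25.1% and 25.4% of all genes. In the negative sort 1 was called lower, against 21.4% of all genes. Summed over the list, the level was 230 to 234 TPM in adult, 242 to 346 at PND8 and 1130 to 1348 in repopulation. Ifit1, an RNA-binding antiviral protein, stood at 2.26 and 2.37 TPM in adult and at 13.9 to 15.1 TPM in repopulation. Irf7, a transcription factor of the interferon response, stood at 8.80 and 11.6 TPM in adult and at 76.0 to 93.1 TPM in repopulation. Of the 10 monocyte or neutrophil markers, 5 to 7 were at 0 in the repopulation libraries, and their sum was lower there than in adult. Individual markers differed in direction. Plac8 was at 2.51 and 1.58 TPM in adult, 6.03 to 14.4 at PND8 and 14.5 to 26.9 in repopulation, and was called higher in repopulation against adult and against PND8 in both sorts. Ccr2, the chemokine receptor of inflammatory monocytes, was at 5.46 and 6.05 TPM in adult, 0.767 to 1.58 at PND8 and 2.10 to 3.63 in repopulation, and was called higher in repopulation than at PND8 in both sorts. Ly6c2 was at 4.29 and 0 TPM in adult, 0 at PND8 and 0 to 0.751 in repopulation. The part of interferon signalling and of monocytes in the Ms4a4c level was not tested.

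**Figure D2:**
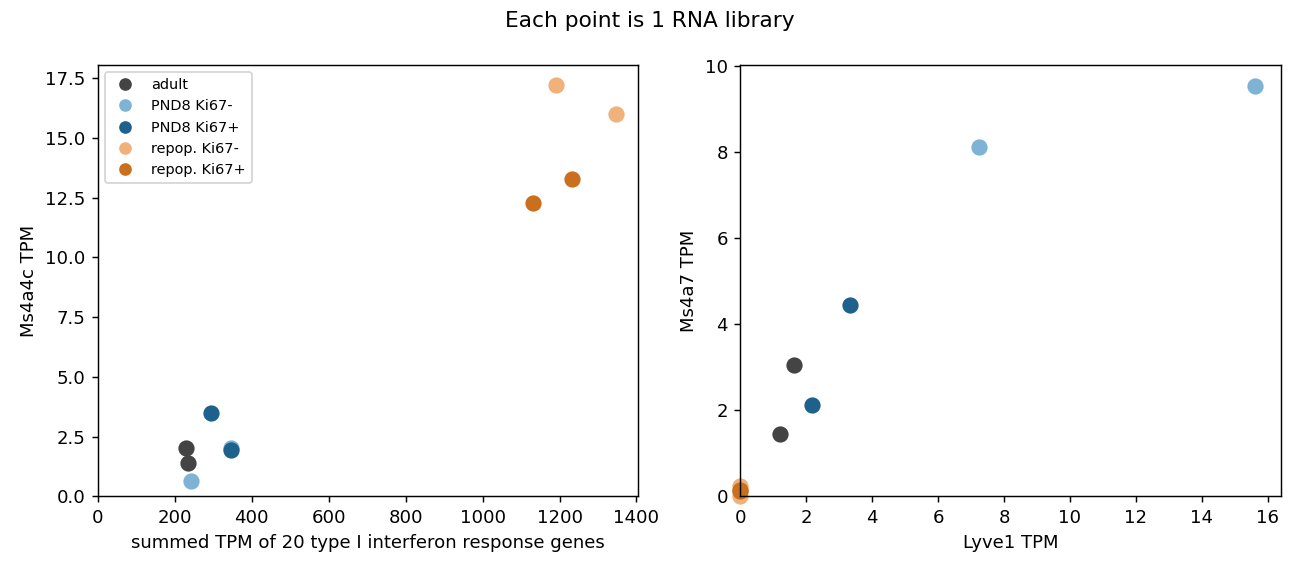
Left, Ms4a4c TPM against the summed TPM of the 20 interferon response genes; right, Ms4a7 TPM against Lyve1 TPM, a border macrophage marker; each point is 1 of 10 RNA libraries, coloured by group. The 4 repopulation libraries stood apart at the upper right on the left, with 12.3 to 17.2 TPM of Ms4a4c, and at the origin on the right, where Lyve1 was 0. Lyve1 was named after its values were seen and was the gene closest to Ms4a7 by Pearson r. Other markers of its list differed. Siglec1 was called higher in repopulation than in adult, and Mrc1 did not follow Ms4a7 between the PND8 sorts.

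Ms4a4b (19:11443558-11463548, plus strand), which lies next to Ms4a4c, was nearly silent. It had 1 count in a PND8 Ki67-positive library (0.138 TPM) and 2 counts in a repopulation Ki67-positive library (0.268 TPM), and 0 in the other 8. A floor of 3 counts corresponds to 0.275 to 0.457 CPM (counts scaled to library size) in these libraries, so all 10 values lay under it, and the gene did not pass the filter on low counts. The other 5 members passed. Among the stretches read, the one before its start is most like the one before the counted Ms4a4c start. The Ms4a4b level did not leave the floor in the libraries where Ms4a4c was high. The sequence before the upstream RefSeq start of Ms4a4c was not compared, so the likeness of the promoters in use is not known.

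Ms4a6c (19:11469368-11482196, plus strand) was at 29.1 and 30.0 TPM in adult, 29.0 and 30.3 in PND8 Ki67-negative, 20.8 and 21.3 in PND8 Ki67-positive, 42.9 and 42.6 in repopulation Ki67-negative and 45.1 and 46.2 in repopulation Ki67-positive. The repopulation groups lay above the rest without overlap, adult and PND8 Ki67-negative overlapped, and PND8 Ki67-positive lay below all other groups. Against adult, Ms4a6c was higher in repopulation Ki67-positive cells by 0.70 (SE 0.108, edgeR adjusted p = 0.000153, 1.63-fold). In repopulation Ki67-negative cells the difference was 0.60 (SE 0.108, adjusted p = 0.000721, 1.52-fold). In PND8 Ki67-positive cells it was lower than in adult by a log2 value of -0.48 (SE 0.113, adjusted p = 0.00306), while in PND8 Ki67-negative cells the value was 0.02 (adjusted p = 0.877). Repopulating cells exceeded PND8 cells by 1.19 (SE 0.111, adjusted p = 3.22e-06, 2.28-fold) in the positive sort and by 0.58 (SE 0.108, adjusted p = 0.00104) in the negative sort. Within the shared header code these differences were 1.12 and 0.53. A RefSeq lncRNA, BE692007, overlaps Ms4a6c, and whether the counting used strand is not given in the sources used here, so reads of the overlap cannot be assigned.

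Ms4a6d (19:11586606-11604804, minus strand) was highest in adult. It was at 87.2 and 88.8 TPM in adult, 77.8 and 78.6 in PND8 Ki67-negative, 71.1 and 62.3 in PND8 Ki67-positive, 61.9 and 64.2 in repopulation Ki67-negative and 62.1 and 63.2 in repopulation Ki67-positive. Both adult libraries lay above the other 8, PND8 Ki67-negative came next without overlap, and the last 3 groups overlapped. The difference from adult was -0.39 (SE 0.102, edgeR adjusted p = 0.00586) in PND8 Ki67-positive cells, and without PND8 Ki67-positive replicate 2 it was -0.30 with adjusted p = 0.0764. In repopulation Ki67-positive cells it was -0.41 (SE 0.102, adjusted p = 0.00504). In repopulation Ki67-negative cells it was -0.41 (SE 0.102, adjusted p = 0.00627), a call lost when replicate 1 of that group was left out (-0.35, adjusted p = 0.0567). The PND8 Ki67-negative value of -0.15 was not called (adjusted p = 0.237). Between repopulation and PND8, Ms4a6d was not called in either class (-0.02 with adjusted p = 0.902 in the positive sort, -0.26 with adjusted p = 0.0609 in the negative sort).

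Ms4a6b (19:11518559-11530403, plus strand) was not called in any comparison. Its levels were 79.4 and 66.5 TPM in adult, 71.0 and 62.3 in PND8 Ki67-negative, 60.9 and 62.6 in PND8 Ki67-positive, 66.3 and 61.2 in repopulation Ki67-negative and 68.9 and 62.3 in repopulation Ki67-positive. All neighbouring groups in the order of means overlapped. Its log2 fold changes lay between -0.23 and 0.16 over the 8 comparisons of 2 groups, and none was called (lowest edgeR adjusted p = 0.101). Ms4a6b and Ms4a6c, which share the 48-base run upstream of their starts, differed in their calls between adult and repopulation, although the difference between the genes was not itself tested.

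Ms4a7 (19:11321039-11336146, minus strand) was at 1.45 and 3.05 TPM in adult, 8.11 and 9.53 in PND8 Ki67-negative, 2.13 and 4.43 in PND8 Ki67-positive, 0.230 and 0 in repopulation Ki67-negative and 0.126 and 0.153 in repopulation Ki67-positive. PND8 Ki67-negative lay above all other groups, PND8 Ki67-positive and adult overlapped, and the 4 repopulation libraries lay below all others with 0 to 2 counts each. Against adult, Ms4a7 was higher in PND8 Ki67-negative cells by 1.99 (SE 0.477, edgeR adjusted p = 0.00398, 3.98-fold). That value rests on 11 and 22 adult counts. It was 1.55 with adjusted p = 0.0579 without adult replicate 1 and 2.62 with adjusted p = 0.00946 without adult replicate 2. In PND8 Ki67-positive cells the value was 0.55 (adjusted p = 0.394). All 4 comparisons of repopulation with adult or PND8 called Ms4a7 lower in repopulation. With 2 counts in each repopulation group, the sizes are given as ratios of depth-scaled counts, with exact 95% intervals that cover counting error only. Adult exceeded repopulation Ki67-positive 15.3-fold (3.91 to 132, adjusted p = 0.00373) and repopulation Ki67-negative 15.9-fold (4.05 to 136, adjusted p = 0.0041). PND8 exceeded repopulation 22.4-fold in the Ki67-positive sort (5.90 to 190, adjusted p = 0.00161) and 64.3-fold in the Ki67-negative sort (17.5 to 536, adjusted p = 5.08e-05).

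Most of the tested border macrophage markers were called in the direction of Ms4a7 in PND8 Ki67-negative and in repopulation cells against adult. Of the 9 tested, 6 were called higher and none lower in PND8 Ki67-negative than in adult cells, where 25.4% of all genes were called higher. In PND8 Ki67-positive cells, where Ms4a7 was not called, 4 were called higher and 1 lower than in adult, where 25.1% of all genes were called higher. In repopulation Ki67-positive cells 7 were called lower than in adult, where 21.0% of all genes were called lower, and 1, Siglec1, higher. Lyve1, a hyaluronan receptor of border macrophages, was at 1.21 and 1.63 TPM in adult, 7.23 and 15.6 in PND8 Ki67-negative, 2.17 and 3.33 in PND8 Ki67-positive and 0 in all 4 repopulation libraries. F13a1, which encodes a coagulation factor chain, was at 1.78 and 3.45 TPM in adult, 6.52 and 8.71 in PND8 Ki67-negative, 3.20 and 3.34 in PND8 Ki67-positive and 0.056 to 0.478 in repopulation. Mrc1, the mannose receptor, was high at PND8 in both sorts, with 204 and 147 TPM in the negative and 238 and 230 TPM in the positive sort, and did not follow Ms4a7 between them. Between 2 and 3 of the 10 markers were at 0 in each repopulation library, Lyve1 and Cd209f among them. The part of border macrophages in the Ms4a7 level was not tested.

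**Figure D3:**
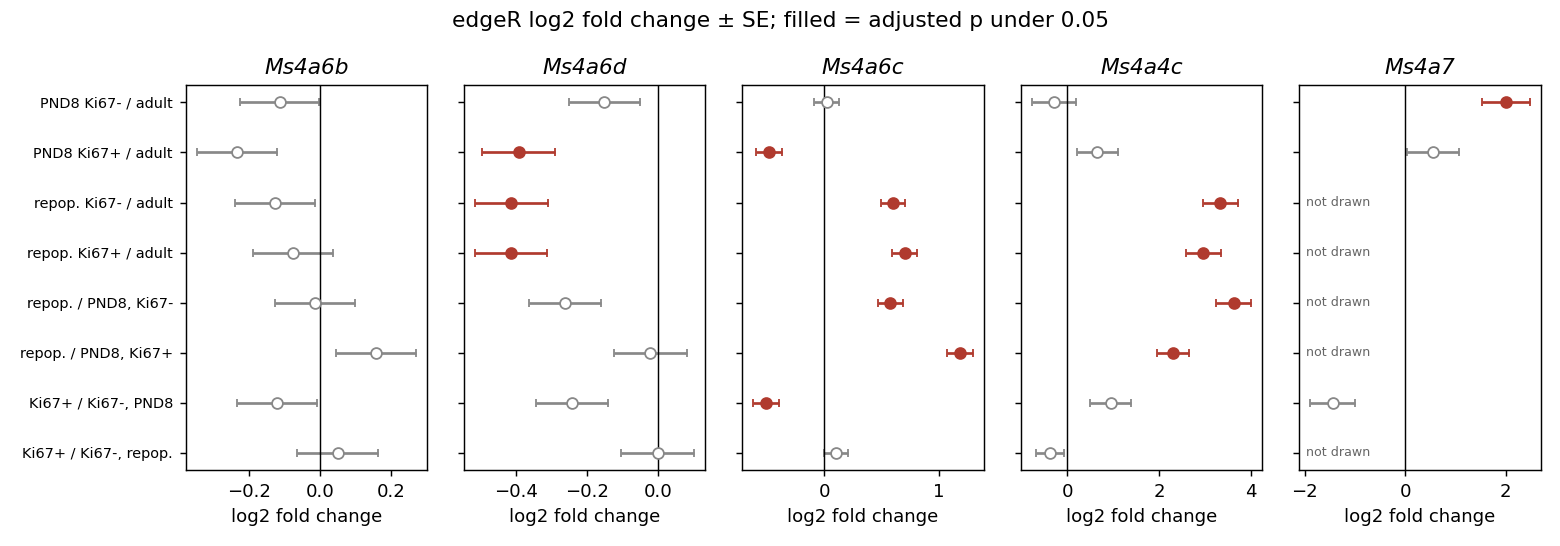
edgeR log2 fold change (x axis, own range in each panel) with its SE for 5 members in 8 comparisons (y axis); filled points have an adjusted p under 0.05, and Ms4a7 comparisons with repopulation are not drawn because they rest on 2 counts a group. Ms4a4c and Ms4a6c were higher in all 4 comparisons of repopulation with another stage, from 2.30 to 3.62 and from 0.58 to 1.19.

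Counted over the 5 tested members, repopulation differed from adult in 4: Ms4a4c and Ms4a6c were higher and Ms4a6d and Ms4a7 lower. This held in repopulation Ki67-positive cells, where 44.9% of all tested genes were called (23.9% higher, 21.0% lower). It held in repopulation Ki67-negative cells, where 39.2% were called (21.5% higher, 17.6% lower). The 2 comparisons share the adult libraries. PND8 Ki67-positive cells differed from adult in 2 members, Ms4a6c and Ms4a6d, both lower, where 49.5% of all genes were called (24.3% lower). PND8 Ki67-negative cells differed in 1, Ms4a7, higher, where 46.8% of all genes were called (25.4% higher). Repopulation differed from PND8 in 3 members in each sort, with Ms4a4c and Ms4a6c higher and Ms4a7 lower, where 30.9% of all genes were called in the positive sort (16.7% higher, 14.2% lower) and 36.6% in the negative sort (18.0% higher, 18.6% lower). No test of these shares was made, and with 5 members they are coarse.

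Between the Ki67 sorts, the main fit called 1 of the 5 tested members at PND8 and none in repopulation. At PND8 it called 5.90% of all genes between Ki67-positive and Ki67-negative cells (3.15% lower). An unadjusted edgeR p under 0.05 was reached there by 3 of the 5 members, against 19.7% of all genes. The main fit kept the filter on low counts and held no code or replicate term. Ms4a6c was the only member it called. Its difference was -0.51 (SE 0.112, edgeR adjusted p = 0.0161), and the values within the 2 header codes were -0.50 in each. The call was lost without PND8 Ki67-negative replicate 2 (-0.46, adjusted p = 0.0607), without PND8 Ki67-positive replicate 1 (-0.45, adjusted p = 0.134) and without PND8 Ki67-positive replicate 2 (-0.50, adjusted p = 0.153). It was also lost when only these 2 groups entered the fit (-0.48, adjusted p = 0.152). Ms4a7 stood at -1.44 in the same comparison (SE 0.452, adjusted p = 0.0814), with -1.84 and -1.06 within the codes. It was called with the header code as a term (-1.47, adjusted p = 0.0161) and with no filter on low counts (adjusted p = 0.0188). Ms4a4c stood at 0.94 (SE 0.446, adjusted p = 0.263), with 2.10 in 1 code and -0.06 in the other, and was called without PND8 Ki67-negative replicate 2 (2.07, adjusted p = 0.0485). In repopulation, edgeR called none of the 5 members between the sorts, where 2.74% of all genes were called, and none had an unadjusted p under 0.05. Ms4a6c stood at 0.10 there (adjusted p = 0.709) and Ms4a4c at -0.37 (adjusted p = 0.617). The test of whether the Ki67 difference itself differed between repopulation and PND8 called no gene with edgeR (0%), with 613 genes (5.01%) and 2 members, Ms4a4c and Ms4a6c, at an unadjusted p under 0.05. DESeq2 called 3 genes there and no member.

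Of the other 11 Ms4a genes, all but Ms4a4a were at or near the floor in these cells. Ms4a2, Ms4a5, Ms4a10 and Ms4a18 had no count in any library, and Ms4a1, Ms4a3, Ms4a4d, Ms4a8a, Ms4a13 and Ms4a15 had at most 3 counts in a library. Ms4a4a, a macrophage gene that lies between Ms4a7 and Ms4a4c, had 13 and 3 counts in adult, 9 and 27 in PND8 Ki67-negative, 8 and 19 in PND8 Ki67-positive, 4 and 4 in repopulation Ki67-negative and 2 and 1 in repopulation Ki67-positive. It was called lower in repopulation than in PND8 Ki67-positive cells (edgeR adjusted p = 0.04) and in no other comparison. Gm8369, a predicted gene of the span, had 0 to 8 counts. Tmem176a and Tmem176b, which encode related membrane proteins of myeloid cells and lie on another chromosome, were more abundant per length than any member, at 133 to 181 TPM and 236 to 296 TPM. Tmem176a was higher than adult in repopulation Ki67-positive cells by 0.29 (adjusted p = 0.0116) and in repopulation Ki67-negative cells by 0.24 (adjusted p = 0.0388). Tmem176b was not called against adult, at 0.18 (adjusted p = 0.0878) and 0.09 (adjusted p = 0.417).

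TREM2 signalling genes, the receptor and the adaptor, kinases and proteases around it, were listed because the human cluster is linked to soluble TREM2. Of the 8, 4 were called higher and 1 lower in each repopulation group against adult (medians 0.24 and 0.24, against -0.01 over all genes in each). Over all genes 23.9% were called higher and 21.0% lower in the Ki67-positive comparison, and 21.5% and 17.6% in the Ki67-negative comparison. Trem2 itself was the 1 that was lower, by a log2 value of -0.30 in the Ki67-positive (edgeR adjusted p = 0.0104) and -0.25 in the Ki67-negative sort (adjusted p = 0.0294). Tyrobp, its signalling adaptor, was higher by 0.35 (adjusted p = 0.0149) and 0.38 (adjusted p = 0.0109). At PND8, 3 of the 8 were called lower than adult in each sort and none higher, where 24.3% of all genes were called lower in the positive and 21.4% in the negative sort. Trem2 was at 402 and 409 TPM in adult and 313 to 343 TPM in repopulation, with no overlap. The 12 homeostatic microglia genes, typical of resting microglia, had 6 called lower in repopulation Ki67-positive and 4 in repopulation Ki67-negative cells against adult, with none higher, where 21.0% and 17.6% of all genes were called lower.

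The genes outside the family whose log2 CPM followed each member most closely over the 10 libraries were taken as a description. For Ms4a4c they were Pilra (Pearson r 0.978), BC147527 (0.976) and Zbp1 (0.976), and 1.95% of 12224 genes exceeded 0.9. For Ms4a6c they were Kcnn4 (0.980), Acer3 (0.959) and Hap1 (0.959), with 1.63% above 0.9. For Ms4a7 they were Lyve1 (0.985), F13a1 (0.982) and Cd38 (0.980), with 1.78% above 0.9. For Ms4a6d they were Gpd1 (0.969), Sap25 (0.963) and Zfp598 (0.953), with 0.368% above 0.9. For Ms4a6b no gene exceeded 0.9, and Casc4 (0.895), Xpr1 (0.878) and Smad4 (0.859) came first. The 10 libraries form 5 groups of 2 and share their stage within a group. Ms4a4c and Ms4a7 ran opposite to each other (r -0.93), and Ms4a4c ran with Ms4a6c (0.77).

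Over the chromatin libraries, the starts of Ms4a6b and Ms4a6c carried H3K27ac peaks in all 12 libraries and the start of Ms4a6d in 11. A start was called marked when a peak lay within 1000 bp, and 41.3% to 51.1% of the 20999 gene starts were marked per library. The signal is tags in the peak, scaled to 10000000 tags of the library. At the Ms4a6b start it was 30.6 and 218 in adult, 305 and 357 in PND8 Ki67-negative, 275 and 255 in cuprizone Ki67-negative, 255 and 358 in PND8 Ki67-positive, 209 and 225 in cuprizone Ki67-positive and 215 and 263 in repopulation Ki67-positive. Adult replicate 1 stood far below the other 11, which overlapped between groups. At the Ms4a6c start it was 17.9 and 114 in adult, 122 and 166 in PND8 Ki67-negative, 140 and 195 in cuprizone Ki67-negative, 108 and 128 in PND8 Ki67-positive, 175 and 227 in cuprizone Ki67-positive and 130 and 155 in repopulation Ki67-positive. Both repopulation values exceeded both PND8 Ki67-positive values, narrowly at 130 against 128, which is also the order of the Ms4a6c RNA. They overlapped PND8 Ki67-negative, although its RNA was lower, and cuprizone Ki67-positive, for which there is no RNA, was higher. Adult RNA was above that of PND8 Ki67-positive cells, yet the adult signals were not both higher (17.9 and 114 against 108 and 128). At the Ms4a6d start adult replicate 1 had no peak, adult replicate 2 stood at 64.8, and the other 10 lay between 45.6 and 92.3. Adult replicate 1 had the fewest peaks in all (19572, against 24082 to 30539) and 32.6% of its tags in peaks, against 45.5% to 69.7% elsewhere.

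Ms4a7 and Ms4a4c had rarer marks. The Ms4a7 start had a peak in PND8 Ki67-negative replicates 1 and 2 (16.3 and 12.4) and in cuprizone Ki67-negative replicate 2 (12.6), and in none of the other 9 libraries. PND8 Ki67-negative was also the group with the highest Ms4a7 RNA. No library had H3K27ac within 1000 bp of the counted Ms4a4c start. RefSeq places the first Ms4a4c start at 11404717, about 3 kb further upstream and within the pseudogene Gm5692, and a peak covered that start in 6 libraries (chr19:11403860-11405504, 1644 bp, 2.98 kb upstream of the counted start). Its signal was 58.0 and 72.5 in repopulation Ki67-positive, 30.9 and 13.7 in PND8 Ki67-positive, 48.4 in cuprizone Ki67-negative replicate 2 and 32.7 in cuprizone Ki67-positive replicate 2. The 2 repopulation values were the highest of the 6. Neither adult nor PND8 Ki67-negative libraries had the peak, and RNA was not measured in cuprizone. Ms4a4b had no peak at its start in any of the 20 peak libraries.

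In the whole span the number of H3K27ac peaks was 2 and 4 in adult, 9 and 9 in PND8 Ki67-negative, 5 and 10 in cuprizone Ki67-negative, 6 and 8 in PND8 Ki67-positive, 5 and 8 in cuprizone Ki67-positive and 8 and 7 in repopulation Ki67-positive. Both adult libraries lay below the other 10. Among peaks at or above the median score of each list, the group means were 1 in adult, 2.5 in PND8 Ki67-negative, 1 in PND8 Ki67-positive, 2 and 1.5 in cuprizone Ki67-negative and positive and 0.5 in repopulation, so that adult was no longer lowest. The adult libraries covered 1.33 and 7.34 kb, against 6.59 to 13 kb elsewhere, with a mean signal per peak of 24.3 and 114 against 70.3 to 116. Merged over libraries these were 14 loci. Adult cells had no peak at 10 of them (71.4%), whereas 37.5% of 39502 H3K27ac loci over all chromosomes had no adult peak. With only adult replicate 2 the count could not change, because every locus marked in adult replicate 1 was also marked in replicate 2. The share over all chromosomes was not computed with replicate 2 alone. A peak in both libraries of some group and in no adult library was found at 7 of the 14 (50.0%), against 19.4% over all chromosomes. The 2 loci marked in all 12 libraries were the Ms4a6b and Ms4a6c starts, and 38.0% of the loci over all chromosomes were marked in all 12. No locus was found in adult alone. The counts set 2 adult libraries against 10 others, and no test was made of them.

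Away from the counted starts of the members, 6 loci had peaks in both libraries of a group and in no adult library, and the first by signal was the one at the upstream Ms4a4c start. The second (chr19:11430731-11432271, 1540 bp) lay between Ms4a4c and Ms4a4b, 12.1 kb upstream of the Ms4a4b start, in 8 libraries. Its signal was highest in cuprizone Ki67-positive cells (53.2 and 60.1), and was 31.7 and 11.1 in repopulation Ki67-positive and 24.0 and 23.5 in PND8 Ki67-negative cells. The third (chr19:11349697-11350969, 1272 bp) lay 14.2 kb upstream of the Ms4a7 start, in 5 libraries. It was at 28.6 and 50.6 in PND8 Ki67-negative, 17.2 and 14.2 in PND8 Ki67-positive and 20.7 in cuprizone Ki67-negative replicate 2. No repopulation library had it, and repopulation was the stage with the lowest Ms4a7 RNA. Its chromatin was nonetheless open in all 3 ATAC libraries, at 64.4 in adult, 97.6 at PND8 and 69.9 in repopulation.

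**Figure D4:**
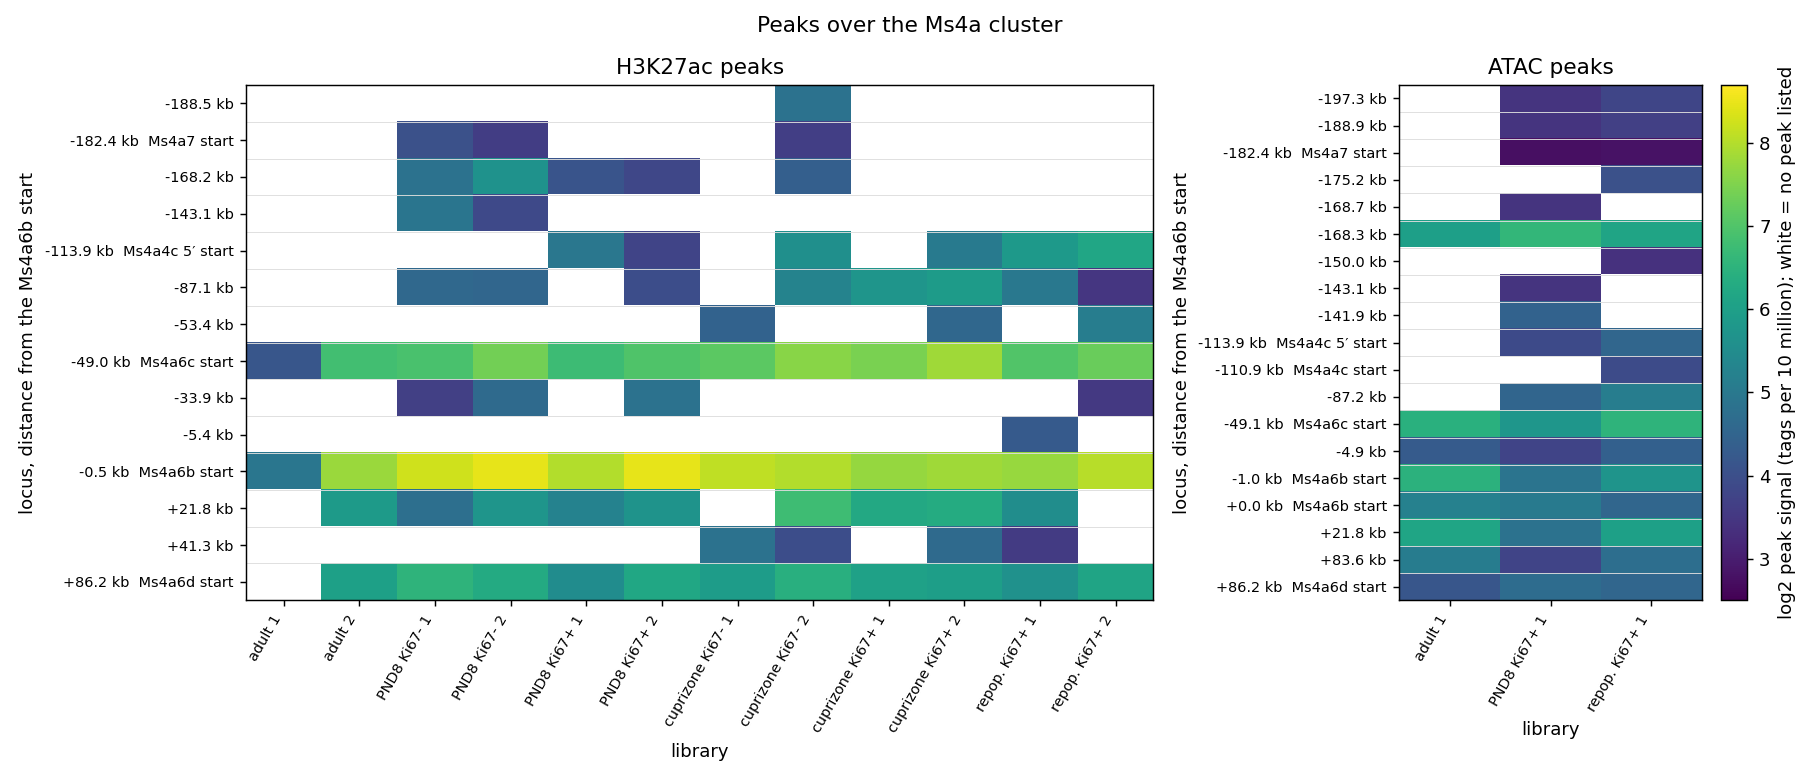
Signal of H3K27ac peaks (left, 14 loci in 12 libraries) and ATAC peaks (right, 19 loci in 3 libraries), with loci as rows at their distance from the Ms4a6b start, libraries as columns, colour as log2 signal and white where no peak is listed. The adult columns are the emptiest, the Ms4a6b and Ms4a6c starts are filled in every library, and the upstream Ms4a4c start is filled in both repopulation libraries.

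ATAC-seq, with 1 library a stage and so no replicate check, gave 8 peaks in adult, 16 at PND8 and 16 in repopulation over the span. Among peaks at or above the median score of each list the counts were 6, 6 and 8. The whole lists held 71642, 75296 and 95411 peaks. Merged, these were 19 loci, of which 8 were open in all 3 libraries, against 50.3% of 109111 loci over all chromosomes. The other 11 (57.9%) were not listed in adult, against 34.5% over all chromosomes. The starts of Ms4a6c (86.9 in adult, 54.2 at PND8, 92.0 in repopulation), Ms4a6b (37.4, 32.5 and 23.3 at the start, and 89.9, 29.8 and 52.4 at a further peak 1 kb upstream) and Ms4a6d (18.0, 25.8 and 23.3) were open in all 3 libraries. The counted Ms4a4c start had a peak only in repopulation (15.1, chr19:11407576-11407690), which covers the end of the stretch printed above and the first bases of the gene. The upstream Ms4a4c start had a peak at PND8 (14.9) and in repopulation (23.3) and none in adult. The Ms4a7 start had a low peak at PND8 (6.78) and in repopulation (6.99), although Ms4a7 RNA was at the floor in repopulation. The locus between Ms4a4c and Ms4a4b was open at PND8 (23.0) and in repopulation (34.9) and not listed in adult, like its H3K27ac. Of the 20999 gene starts, 56% to 60.8% were open per ATAC library.

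Rpb2 had 7 peaks in the span in PND8 Ki67-positive cells, with 11.9 at the Ms4a6b start and 8.57 at the Ms4a6c start. The 2 adult Rpb2 libraries had 2 and 0 peaks in the span and none at a member start, where 36.0% and 30.6% of all gene starts were marked, against 48.4% in the PND8 library. H3K4me3 in adult cells marked the Ms4a6b start at 276 and 229 and the Ms4a6d start at 48.3 and 72.4. The Ms4a6c start was marked in 1 of the 2 adult libraries (22.4), although Ms4a6c RNA was near 30 TPM in both adult RNA libraries. Ms4a4b, Ms4a4c and Ms4a7 had no H3K4me3 peak in adult cells.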

How the data were processed

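The members and lists were chosen with earlier results of these data known. Per the submitters' processing notes, reads were aligned with STAR 2.7.0f or Bowtie2 2.3.4.1 and summarised with HOMER 4.11 on mm10. The deposited counts are raw reads per gene, and the TPM values were made by the authors from the same RNA libraries. Each TPM column summed to 472498 to 486779, and 4532 genes used another transcript for TPM than for counts, none of them a member. The peak lists hold, per the file headers, a signal of tags scaled to 10000000 and the HOMER peak score the authors' program gave; the H3K27ac peaks were called per library at 4-fold over input and an FDR of 0.001. The 16 input samples were not used.

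Counts were fitted with edgeR 4.0.16 (quasi-likelihood, TMM, filterByExpr, 12230 genes) over all 10 RNA libraries in 5 groups, with Benjamini-Hochberg adjustment and a threshold of 0.05. The common biological coefficient of variation was 0.0957. The fit was also run on simulated counts with known changes, in which every gene was drawn at that common value and without a header code effect. Such counts cannot show how the test behaves for genes with a larger spread. Named are the 6 members, the other Ms4a genes, Tmem176a, Tmem176b, the 3 closest genes of each member by Pearson r, listed examples from the gene lists, and the 3 loci of highest signal that no adult library holds. Lyve1, F13a1, Mrc1, Stab1, Cd209f, Siglec1, Slc1a3, Aqp4, Gfap, Aldh1l1, Plac8, Ccr2 and Ly6c2 were named after their values were seen. Peaks of different libraries were merged into loci within 500 bp for H3K27ac and 100 bp for ATAC and Rpb2. Alternatives were DESeq2 1.42.0, limma 3.58.1 on log2(TPM + 1) and log2(TPM + 0.1), other scalings, filters and samples, and leaving out each replicate.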

Additional observations from a re-analysis of the deposited data

Results flagged for a closer look

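For Ms4a6c, the libraries of the 2 stages lay on opposite sides of 0 in the Ki67 comparison. The Ki67-positive minus Ki67-negative difference was 0.61 higher on the log2 scale in repopulation than at PND8 (SE 0.154). It was below 0 in both header codes at PND8 (-0.50 and -0.50) and above 0 in both in repopulation (0.09 and 0.11), where the fitted value of 0.10 was not called (adjusted p = 0.709). The edgeR interaction test gave an unadjusted p of 0.00158 and an adjusted p of 0.96 over all genes, so the difference did not pass the threshold.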

How the results depend on the processing

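Of 185 alternative values for the number of members called, 176 stayed within 1.5 times the main count. For PND8 Ki67-positive against Ki67-negative cells the count of 1 became 0 at an adjusted p under 0.01 and with only the 2 groups fitted, and 2 with no filter on low counts and with the header code, a term added after seeing the data. Without each replicate in turn it was 0 to 1. Against adult, it was 1 to 2 for PND8 Ki67-positive (main 2) and 0 to 1 for PND8 Ki67-negative cells (main 1). Of 879 alternative values of a member's fold change, 835 kept their direction and side of the threshold, 28 moved, 9 passed it, 7 lost it and none of a called value reversed. Ms4a6d between repopulation and PND8 Ki67-negative cells was called by library-size scaling (adjusted p = 0.0193) and by limma (adjusted p = 0.0122). The cause was not tested. Low counts limit Ms4a4c in adult and PND8, and Ms4a7 throughout.

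With the replicate block, 2 members were called between the PND8 sorts, Ms4a6c and Ms4a7 (-1.48, adjusted p = 0.0285), and Ms4a6d between repopulation and PND8 Ki67-negative cells had adjusted p = 0.043. Same-numbered libraries deviated together with r 0.34 at PND8 and 0.26 in repopulation, and with adult r lay between -0.01 and 0.01. The sample labels give only replicate numbers, so the pairing is a hint from the data. Within each of these stages, same-numbered libraries of both sorts also share a header code, so r cannot tell pairing from code. PND8 replicate 2 shares its code with repopulation replicate 1, so the replicate block does not follow the codes across stages.

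Of 57 alternative peak values 41 stayed near the main ones. Mean H3K27ac peaks in the span were 3 in adult, 9 and 7 in PND8 Ki67-negative and positive, 7.5 and 6.5 in cuprizone Ki67-negative and positive, and 7.5 in repopulation. In the peaks at or above the median score of each list they were 1, 2.5, 1, 2, 1.5 and 0.5 in the same order. Counting only peaks with at least 50% of their length inside the span, PND8 Ki67-negative had 8.5, and with 50 kb added on each side it had 10 and repopulation 8.5. ATAC peaks (main 8, 16 and 16 in adult, PND8 and repopulation) were 6, 6 and 8 by score and 12, 19 and 22 with 50 kb added.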
